A study of Mus musculus with 6 samples.

Results

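Of 55681 non-control probes on the array, 16181 (29.1%) carried no gene name or accession but a genomic interval: a chromosome, a start, an end and a strand, written F or R, on the mouse assembly mm9. These interval probes were chosen by that name alone, with no measured value. F was carried by 8171 probes and R by 8010. The array design uses such names for large intergenic noncoding RNA (lincRNA) loci. The names give no gene model and no probe position, so whether an interval lies between genes, and whether its transcript is exonic or intronic to a gene, was not checked. The probes were described beside 26695 probes named by RefSeq messenger RNA accessions (NM_) and 1472 named by RefSeq noncoding RNA accessions (NR_).

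The RNA came from hematopoietic stem cells (HSCs), taken from the bone marrow of mice. CDK6 is a kinase that drives entry into the cell cycle and also acts in transcription, and polyI:C is a man-made mimic of viral double-stranded RNA, which sets off an interferon response and brings resting HSCs into cycle. Each of 6 two-colour arrays held 1 CDK6-/- sample in Cy5, 3 of them untreated and 3 treated with polyI:C, and in Cy3 the wild-type control of that treatment, a pool of sorted HSCs. The series calls the 3 samples of a treatment biological replicates, while each wild-type pool was hybridised 3 times and is 1 sample with technical spread only. No dyes were swapped, so in a genotype ratio a probe's dye bias and the genotype cannot be told apart, whereas a dye bias cancels when the ratios of both treatments are compared. The numbers of mice per sample and pool, their age, sex and strain, and the dose and timing of polyI:C were not given in the sources used here.

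LincRNAs are transcripts longer than small RNAs that encode no known protein, arise from their own promoters outside coding genes and are mostly less abundant than messenger RNAs. Many loci were mapped as stretches of chromatin with marks of active promoters and elongation, and arrays then tiled such stretches with probes on either strand, because the transcribed strand was not always known. In HSCs, H19 and Meg3, both transcribed from imprinted clusters, are known for a part in keeping the cells at rest. The RNA had been amplified as a whole transcriptome, which yields double-stranded product, so a probe of either orientation can in principle find a partner.

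The 16181 probes fell on 4607 intervals when strands were counted apart, and on 3540 distinct intervals when they were not. Of these, 1251 had F probes only, 1222 had R probes only and 1067 had both. Merging overlapping intervals left 2223 regions on 20 chromosomes. Interval length ran from 62 to 7128487 bp with a median of 7316 bp, and 1 interval exceeded 1000000 bp. On one strand an interval had at most 10 probes. A set of 3 probes was the most frequent, on 1809 strand-specific intervals, and 690 had a single probe. Probes of one interval share their target region and are not replicates of a condition.

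A few facts of the arrays bear on all that follows. The RefSeq probe for the deleted gene, Cdk6, gave log2 ratios of CDK6-/- over wild type of 0.40, -0.41 and 0.24 on untreated arrays 1 to 3 and of -0.26, -0.44 and -1.28 on polyI:C arrays 1 to 3. Its position relative to the deletion is not known, so it checks no label. Xist, the RNA of the inactive X chromosome, had ratios of 1.1, 0.42 and -3.98 in untreated samples and of 1.1, 1.87 and -3.42 in treated ones, which sets untreated array 3 and polyI:C array 3 apart. Markers of HSCs were well above background in Cy5 on all 6 arrays for 9 of 9 genes. Markers of other cells moved with the untreated genotype ratio: 5 of 5 B cell genes (median log2 ratio -1.59), 5 of 5 stromal genes (-1.43), 3 of 7 granulocyte genes (-0.80), 3 of 5 erythroid genes (-0.93), 2 of 4 megakaryocyte genes (-0.70) and 1 of 4 monocyte and macrophage genes (-0.57) were lower past the threshold in CDK6-/-. None of 9 HSC genes, 4 T and NK cell genes or 5 interferon response genes passed. Over all tested probes, 9.52% were lower past the threshold. Only 2 of 5 B cell and 2 of 5 stromal genes were well above background in Cy5 on all 6 arrays. In bulk RNA, fewer cells of a type and less RNA per cell cannot be told apart. The part of these cells in the ratios of the interval probes was not tested.

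On every array a smaller share of interval probes than of messenger RNA probes was detected. The scanner software marks a spot well above background when its signal clearly exceeds that of its surround. In Cy5, 45.6, 47.6 and 45.4% of interval probes carried the mark on untreated arrays 1 to 3, and 35.5, 42.0 and 75.3% on polyI:C arrays 1 to 3. For NM_ probes the shares were 60.5, 63.1 and 61.5% and 56.7, 60.8 and 79.0%, above those of the interval probes on all 6 arrays. For NR_ probes they were 38.5, 40.0 and 36.7% and 30.1, 35.2 and 65.1%, below those of the interval probes on all 6. The wild-type pools gave 51.1, 51.0 and 50.9% of interval probes in the untreated hybridisations and 46.3, 49.1 and 74.2% in the polyI:C hybridisations.

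**Figure D1:**
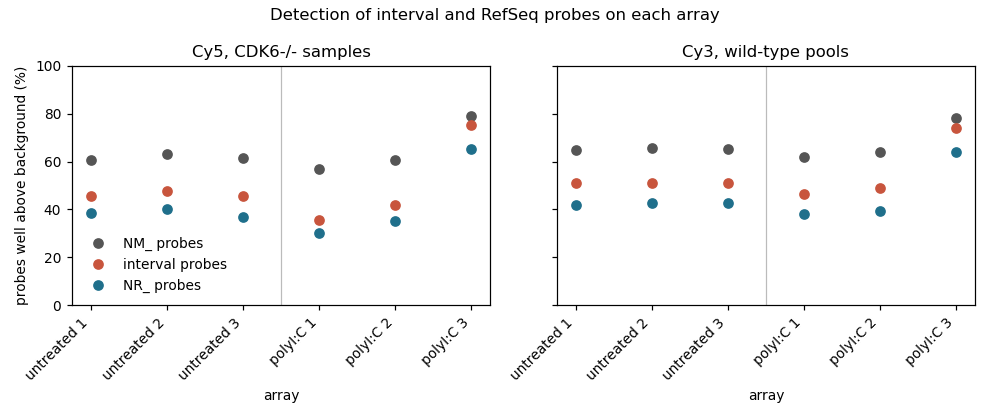
Share of probes well above background (y axis, percent of probes) on each of the 6 arrays (x axis) for NM_, interval and NR_ probes, with the CDK6-/- samples (Cy5) on the left and the wild-type pools (Cy3) on the right. Interval probes lie between NM_ and NR_ probes on every array, and polyI:C array 3, at 75.3% in Cy5 and 74.2% in Cy3, stands above the other 5.

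The detected shares of the 2 treatments overlapped. The share averaged 46.2% (SD 1.20, n = 3) in untreated and 50.9% (SD 21.3, n = 3) in polyI:C-treated CDK6-/- samples, a difference of 4.72 points with an exact two-sided permutation p of 1.0, where 3 against 3 arrays cannot go below 0.1. PolyI:C array 3 alone set the direction: without it the difference was -7.45 points. That array was high in both channels and for all 3 kinds of probe.

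A probe was tested when it was well above background in Cy5 or in Cy3 on all 3 arrays of at least 1 treatment. This held for 8080 interval probes, 4104 F and 3976 R, against 17352 NM_ and 590 NR_ probes. The other 8101 interval probes were left out as dim. At least 1 tested probe was left on 2595 of the 3540 intervals. Of 3382 strand-specific intervals with 3 or more probes, 670 had every probe tested, 758 had none and 1954 had some but not all, so detection varied among probes of the same interval. By length of the interval, the tested share was 36.1% in the shortest quartile (up to 785 bp), and then 47.5, 54.7 and 52.4% up to the longest. By chromosome it ran from 39.6% on chromosome 10 to 63.3% on chromosome 17.

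Tested interval probes had lower median levels than tested NM_ probes, and median genotype ratios near 0. Their median log2 Cy5 level was 8.64, 8.56 and 8.54 in the untreated samples and 8.42, 8.44 and 8.85 in the treated ones. For NM_ probes it was 9.55, 9.62 and 9.58, then 9.66, 9.69 and 9.45. The interval median was the lower one on all 6 arrays. In Cy3 it was 8.63, 8.55 and 8.58 and then 8.53, 8.5 and 8.69. The median log2 ratio of interval probes was -0.06, -0.07 and -0.05 untreated and -0.14, -0.10 and 0.06 with polyI:C. For F probes it was -0.05, -0.07 and -0.06 and then -0.14, -0.09 and 0.05. For R probes it was -0.06, -0.06 and -0.04 and then -0.14, -0.10 and 0.07, so the strands had near-equal medians on each array. Interval minus NM_ median ratios averaged 0.01 (SD 0.03, n = 3) untreated and -0.01 (SD 0.18, n = 3) with polyI:C, both smaller than the spread among arrays. With each array centred on its median in place of loess, those differences were -0.07 and -0.13.

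In untreated HSCs, 1050 of 8080 interval probes (13.0%) differed between CDK6-/- and the wild-type pool, 212 of them higher and 838 lower in CDK6-/- (limma, Benjamini-Hochberg adjusted p under 0.05 over all 31798 tested probes). Over all tested probes the share was 12.5%, 3.00% higher and 9.52% lower, so the interval probes were near the background of the array. NM_ probes stood at 12.2% and NR_ probes at 13.7%. The share was 13.5% for F (554 probes) and 12.5% for R (496). The median ratio of the tested interval probes was -0.045, and that of all tested probes -0.054. The 1050 probes lay on 688 intervals, of which 204 held 2 or more, 87 held 3 or more, and 29 held probes that moved in both directions.

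The balance of higher and lower calls depended on the centring of the arrays. With median centring, 1703 of 8080 interval probes passed, 1153 higher and 550 lower, beside 24.3% of all tested probes. The median of all tested probes moved from -0.05 to 0.28. Calls fell to 537, 635 and 609 without untreated array 1, 2 or 3 in turn, and to 547 without the 2 arrays low in Xist. Without polyI:C array 1, 2 or 3 they were 898, 830 and 1141. A fit with fewer untreated arrays has fewer values to average, and the part of any single array in the count was not tested.

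The 8 lowest untreated ratios ran from -2.38 to -2.17 among probes chosen for one sign on all 3 arrays. The R probe of chr7:80762708-80763274, an interval of 567 bp, had log2 ratios of -2.67, -2.37 and -2.10 untreated and of -1.37, -1.10 and -1.38 with polyI:C. All 6 were below 0 and those of the 2 treatments did not overlap. Its fitted untreated ratio was -2.38 (SE 0.18, adjusted p = 0.000420), and its polyI:C ratio -1.28 (adjusted p = 0.0174). An F probe of chr4:131736628-131737384 (757 bp) gave -2.54, -2.11 and -2.38 and then -1.70, -1.44 and -1.68, again low on all 6 arrays, with a fitted untreated ratio of -2.34 (SE 0.17, adjusted p = 0.000397). In both intervals 2 of 3 probes were tested and the other tested probe did not pass in untreated cells, with untreated ratios of -0.19 and 0.14.

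At chr8:105795290-105864030, both tested probes (of 3, all F) were lower in CDK6-/- in both treatments. The first had log2 ratios of -1.84, -2.50 and -2.25 untreated and of -1.97, -1.63 and -0.56 with polyI:C. All 6 were below 0, and polyI:C array 3 was nearest to it. The fitted untreated ratios of the pair were -2.19 and -1.94, and the polyI:C ratios -1.39 and -1.40. At chr7:67001975-67050575, an F probe read -2.16, -2.62 and -1.93 untreated and -1.46, -1.36 and -0.30 with polyI:C, and its fitted untreated ratio was -2.24 (adjusted p = 0.00113). There, 2 of 3 tested probes fell in untreated cells.

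The interval chr10:83980790-83986015 (5226 bp) was lower at every probe. Its strongest R probe gave -2.26, -1.86 and -2.38 in untreated samples and 0.13, -0.17 and 0.23 in treated ones. The untreated values lay well below the treated ones with no overlap, and only the untreated ones were far from 0. All 6 of its probes, 5 R and 1 F, fell in untreated CDK6-/- cells, with fitted ratios from -2.17 to -0.79, and none passed with polyI:C, where ratios ran from 0.06 to 0.33.

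A further 3 probes completed the lowest 8. They were chr16:3111550-3130500 on R (-2.35), chr2:153163620-153170845 on R (-2.17) and chr5:123582742-123588202 on F (-2.36). At the chr5 probe the Cy5 signal was well above background on 1 of 3 untreated arrays, and its ratios of -3.0, -3.02 and -1.06 were the most uneven of the set. In that interval 3 of 9 tested probes fell. Cy5 was also well above background on 1 of 3 untreated arrays at the chr16 and chr2 probes.

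The 8 highest ratios were smaller in size than the 8 lowest. The R probe of chr13:94198298-94198965 (668 bp) had log2 ratios of 1.30, 2.13 and 1.58 untreated and of -0.75, 0.47 and 0.29 with polyI:C. The untreated samples were all high and did not overlap the treated ones. Its fitted ratio was 1.67 (SE 0.26, adjusted p = 0.00372), which missed the threshold at 0.0552 without the 2 arrays low in Xist. An R probe of chr10:5950116-5958250 gave 1.81, 1.60 and 1.19 and then 0.26, -0.60 and -0.25, and an F probe of chr1:137482591-137625604 gave 1.90, 1.69 and 0.86 and then -0.05, -0.33 and 0.16. In both, the untreated samples lay above 0 and above all treated ones. Their fitted ratios were 1.54 (adjusted p = 0.00231) and 1.49 (adjusted p = 0.00336).

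At 3 of the higher probes the wild-type pool was not well above background on any untreated array, so the fold is a lower bound, set by the dimmest signal that was. CDK6-/- was at least 2.68-fold higher at chr4:3752496-3752901 (R), at least 2.57-fold at chr3:146515333-146557069 (F) and at least 2.07-fold at the chr10:5950116-5958250 probe, with fitted log2 ratios of 1.47, 1.44 and 1.54. The remaining probes were chr14:118774481-118873242 on R (1.42), chr17:46972160-46997919 on R (1.38) and chr1:196843592-196865102 on F (1.37). The chr17 probe had the most even ratios of the higher set, 1.29, 1.36 and 1.5, and 1.08, 0.09 and 0.52 with polyI:C. It missed at 0.0527 without the arrays low in Xist. The chr1:196843592-196865102 probe missed without untreated array 1 (0.0694) and without untreated array 2 (0.0726).

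**Figure D2:**
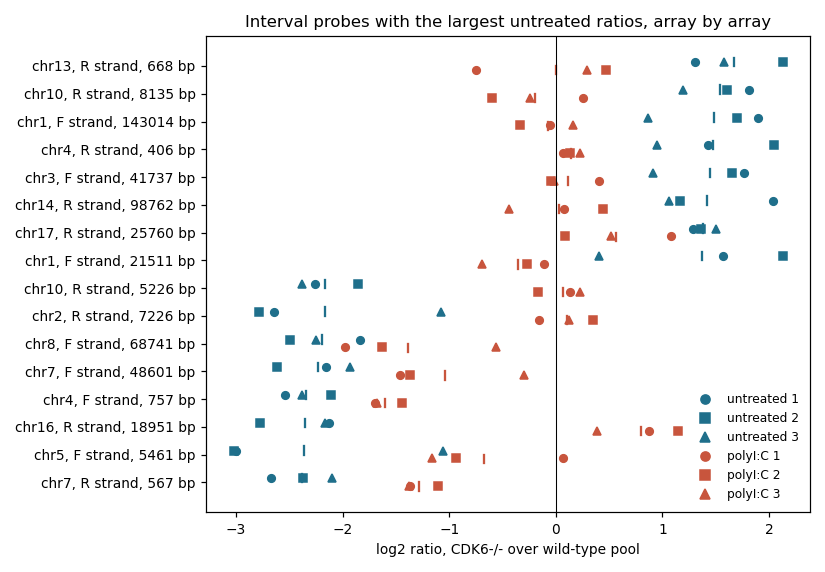
Log2 ratio of CDK6-/- over the wild-type pool (x axis) for the 8 highest and 8 lowest interval probes in untreated cells (y axis, by chromosome, strand and interval length), each point 1 array and each short line the mean of 3. Untreated points keep to one side of 0 by the choice of probes, and polyI:C points lie nearer to 0 in most, as at the chr10 interval of 5226 bp (0.13, -0.17 and 0.23).

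With polyI:C, 67 of 8080 interval probes (0.829%) differed between genotypes, 8 higher and 59 lower in CDK6-/-. All tested probes stood at 0.660%, with 0.201% higher and 0.459% lower. Lower calls made up 0.730% of interval probes and 0.254% of NM_ probes. F probes gave 43 calls (1.05%) and R probes 24 (0.604%). Among the markers of other cells, 2 of 5 erythroid genes were lower in polyI:C-treated CDK6-/- cells (Car1 at -1.61 and Rhag at -1.68, list median -1.19), and 1 of 4 monocyte and macrophage genes was higher (Marco at 1.75). No gene of the other lists passed, and the part of these cells in the 67 calls was not tested. The count varied with the arrays used. Without polyI:C array 1, 2 or 3 in turn it was 0, 3 and 61. Of those 61, 1 was higher and 36 were among the 67. Without untreated array 1, 2 or 3 it was 46, 75 and 26, and without the 2 arrays low in Xist it was 0. At an unadjusted limma p under 0.05 there were 1009 interval probes in the main fit. There were 738 without polyI:C array 1 and 1153 without the 2 arrays low in Xist. With median centring 363 of 8080 passed, 261 higher and 102 lower, with the median of all tested probes at 0.18 in place of -0.03. All tested probes then stood at 8.59%, a larger share than that of the interval probes. Across interval probes the ratios of polyI:C array 3 correlated with those of arrays 1 and 2 at r = 0.09 and 0.21 (n = 8080 probes), while arrays 1 and 2 correlated at 0.46 and the untreated arrays at 0.44 to 0.52 with each other. These correlations are across probes, which share arrays and pool.

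Of the 67 probes, 59 (88.1%) had also passed in untreated cells, where they made up 5.62% of the 1050. The sign was the same at 58 of the 59, with 57 lower and 1 higher in both treatments. The treatments share no sample or pool but share the dye orientation, so at such probes dye and genotype cannot be told apart. Both ratios were also tested with 1 shared estimate of the spread per probe, so the calls of the treatments are not independent.

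An F probe at chrX:75813213-75829323 had low ratios in both treatments. It gave -1.93, -2.19 and -1.89 untreated and -2.05, -1.87 and -1.80 with polyI:C, with the 2 treatments overlapping. The fitted polyI:C ratio was -1.91 (SE 0.17, adjusted p = 0.00434), and the difference between treatments 0.10 (adjusted p = 0.892). Of the 8 lowest probes with polyI:C, all were also lower in untreated cells, with fitted ratios there from -2.34 to -1.53. At the chr14 and chr3 probes among them, with untreated ratios of -1.83 and -1.53, Cy5 was well above background on 0 of 3 untreated and 1 of 3 polyI:C arrays, so those untreated ratios rest on signal near background. The 8 lay at chr14:43929100-43945100 (-2.01, R), chrX:75813213-75829323, chr2:174088550-174109425 (-1.82, F), chr17:29183003-29217681 (-1.65, F), chr4:131736628-131737384 (-1.61, F), chr15:58981936-58982322 (-1.61, F), chr3:78982395-79094345 (-1.59, F) and chr13:112717680-112733330 (-1.58, R). In 7 of those 8 intervals other probes were tested that did not pass with polyI:C, among them chr2:174088550-174109425, where 1 of 12 tested probes did.

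The interval chr11:35805295-35817263 was higher in polyI:C-treated CDK6-/- cells on both strands. Its F probe had log2 ratios of 0.83, 0.93 and 0.62 untreated and of 1.23, 1.66 and 1.46 with polyI:C. All 6 were above 0 and the treated ones lay above the untreated ones. Its R probe gave 0.43, 0.52 and 0.28 and then 0.83, 0.87 and 1.17, in the same order at a lower level. The fitted polyI:C ratios were 1.45 (adjusted p = 0.0110) and 0.95 (adjusted p = 0.0400), and the difference between treatments passed at neither (adjusted p = 0.209 and 0.293). The interval has these 2 probes only.

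The highest polyI:C ratio was that of an R probe at chr19:33049479-33054553, with 2.27, 1.86 and 2.33 on the treated arrays and 2.08, 0.95 and -0.49 on the untreated ones. The treated samples were alike, while the untreated ones spread from above to below 0. The fitted ratio was 2.15 (SE 0.37, adjusted p = 0.0361). The others were chr15:66682293-66722977 on R (1.67), chr17:39982023-39983277 on F (1.35), chrX:92139043-92140820 on R (1.26), chr12:88221395-88221559 on F (1.11) and chr19:44651106-44657612 on R (0.91). None of the 16 probes named for polyI:C kept an adjusted p under 0.05 without the 2 arrays low in Xist (0.0990 to 0.159).

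Whether the genotype ratio itself changed with treatment was tested as the polyI:C ratio minus the untreated ratio. It changed at 95 interval probes (1.18%), 74 of them up and 21 down. All tested probes stood at 1.77%, 1.52% up and 0.248% down, and NM_ probes at 2.07%. R probes gave 57 calls and F probes 38. The calls lay on 76 intervals, 13 of them with 2 or more. Leaving out 1 array brought the count to 44 (untreated 1), 75 (untreated 2), 20 (untreated 3), 18 (polyI:C 1), 8 (polyI:C 2) or 2 (polyI:C 3). With the slide as a fixed block, which in effect drops polyI:C array 3 because it was alone on its slide, no interval probe passed (1558 at an unadjusted limma p under 0.05), and without the 2 arrays low in Xist none did either (1583). The main fit had 1268 at that unadjusted p. With median centring 55 passed, 32 up and 23 down, beside 0.953% of all tested probes. B cell, stromal and granulocyte markers also had lower ratios in untreated cells than with polyI:C. For the difference, 2 of 5, 2 of 5 and 2 of 7 genes passed. In the same direction, 1 of 4 monocyte and macrophage genes and 1 of 4 megakaryocyte genes passed. No gene of the other lists did. The part of these cells in the interval probes' differences was not tested.

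The probes named for this comparison were chosen with groups of arrays that do not overlap. The largest differences came from a pair of intervals on chromosome 16. The R probe of chr16:3111550-3130500 had log2 ratios of -2.12, -2.77 and -2.16 untreated and of 0.88, 1.14 and 0.39 with polyI:C. An F probe of chr16:3337275-3355950 gave -1.92, -2.42 and -1.99 and then 1.21, 1.02 and 0.24. In both the untreated samples were all below 0 and the treated ones all above. The differences were 3.15 (SE 0.30, adjusted p = 0.00461) and 2.94 (SE 0.31, adjusted p = 0.00825), and within slides 1 and 2 they were 3.02 and 3.92 for the first and 3.17 and 3.44 for the second. These were the 2 of the 16 probes named for the difference that passed whichever array was left out.

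In both, the larger difference in level was that between the wild-type pools. At chr16:3111550-3130500 the Cy3 level was 9.49, 9.76 and 9.49 in the untreated pool and 6.94, 6.91 and 6.93 in the polyI:C pool, a difference of -2.65 on the log2 scale. The Cy5 level of CDK6-/- was 7.37, 6.98 and 7.33 untreated and 7.82, 8.05 and 7.32 treated. The untreated pool was therefore high and the other 3 sets of hybridisations low. Cy5 was well above background there on 1 of 3 untreated and 2 of 3 polyI:C arrays. The second interval had a pool difference of -2.46. In each interval a single tested probe (of 3 and of 4) passed for the difference.

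The same order held at chrX:11688787-11689145 (R, 359 bp), with -2.23, -2.13 and -1.97 untreated and 0.48, 0.19 and 1.60 with polyI:C, a difference of 2.87 (adjusted p = 0.0115). Cy5 was well above background on 0 of 3 untreated arrays at this probe, and Cy3 on 0 of 3 polyI:C arrays, so both ratios rest on signal near background and the size of the difference is not settled. At chr4:11049325-11072075, an R probe read -2.05, -1.59 and -2.26 and then 0.06, 0.62 and 0.38, and 3 of 4 tested probes rose. Its Cy5 was not well above background on any untreated array either, so its untreated ratio has the same limit. The R probe of chr10:83980790-83986015 rose by 2.23 (adjusted p = 0.0115), as did 2 others of its 6. The rest of the highest 8 were chr3:131128972-131163308 (2.66), chr2:153163620-153170845 (2.27) and chr3:146629425-146649125 (2.18), all on R.

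A single interval gave 5 of the 8 largest falls. At chr4:11102287-11118421 (16135 bp), 5 of 10 tested probes fell, 3 on F and 2 on R. The strongest, on F, had log2 ratios of 0.59, 1.32 and 1.02 untreated and of -1.28, -1.02 and -1.69 with polyI:C, and an R probe gave 1.0, 1.12 and 1.35 and then -1.08, -0.64 and -0.98. Untreated samples were all above 0 and treated ones all below. The 5 differences ran from -2.30 to -1.65 (adjusted p from 0.0115 to 0.0241). In the wild-type pool these probes were higher with polyI:C by 0.82 to 1.45, and in CDK6-/- they differed by -1.19 to -0.78, none past the threshold. They were dim: the untreated pool was well above background on at most 1 of 3 hybridisations at each, the polyI:C pool on all 3, and treated CDK6-/- on 0 to 2 of 3 arrays. At 2 of the 5, with differences of -2.06 and -1.65, neither the untreated pool nor treated CDK6-/- was well above background on any array, so the ratio of each treatment rests on a signal near background and the size of the difference is not settled.

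The other falls were at chr10:5950116-5958250 on R (-1.73, with the untreated pool well above background on 0 of 3 arrays), chr4:147105275-147171025 on F (-1.62) and chr1:137482591-137625604 on F (-1.56). At chr4:147105275-147171025 the ratios were 1.33, 1.14 and 1.1 untreated and -0.64, -0.51 and -0.14 with polyI:C, with no overlap.

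**Figure D3:**
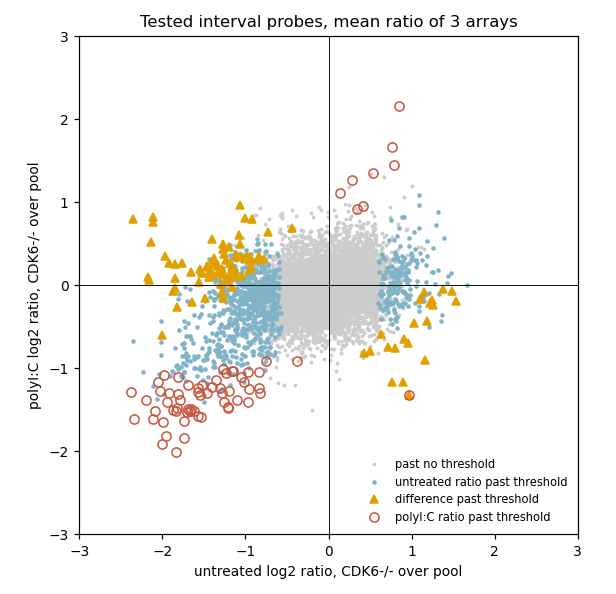
Mean log2 ratio of CDK6-/- over the wild-type pool in polyI:C-treated (y axis) against untreated cells (x axis) for the tested interval probes, with symbols for probes past the threshold in each comparison. Circles (polyI:C, 67 probes) lie mostly at the lower left, where both ratios are below 0, and triangles (difference, 95 probes) lie mostly at the left near a polyI:C ratio of 0 or above.

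The treatment response in CDK6-/- cells was read from the Cy5 levels. By limma, 2 interval probes (0.0248%) passed, both lower with polyI:C, against 0.157% of all tested probes, 0.0598% of them lower. Both probes lay in chr10:120336296-120354471 (18176 bp) on R. The count was 17 with slide as a random block (6 higher, 11 lower) and 9 with median centring (2 higher, 7 lower), both with these 2 probes among them. It was 0 with slide as a fixed block, which in effect drops polyI:C array 3 (1163 at an unadjusted limma p under 0.05), and 0 without the 2 arrays low in Xist (1285). The main fit had 687 at that unadjusted p. With scaling to the 75th percentile 1 other probe passed, a higher one, and neither of these. Of the marker lists, 2 of 5 interferon response genes (list median 2.5) and 2 of 4 megakaryocyte genes (2.75) rose with polyI:C and 1 of 5 erythroid genes (-1.06) fell; their part in the interval probes' response was not tested.

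The first of them had log2 Cy5 levels of 10.75, 11.14 and 11.00 in untreated and 7.66, 6.98 and 6.73 in treated CDK6-/- cells, a difference of -3.84 (SE 0.36, adjusted p = 0.00887). The second gave 10.28, 10.38 and 9.85 and then 7.17, 6.49 and 6.83, a difference of -3.34 (SE 0.34, adjusted p = 0.00992). The treated samples were low without overlap, and well above background on 1 of 3 arrays at each probe. The wild-type pools moved alike: Cy3 at the first probe was 10.19, 10.85 and 10.82 untreated and 6.89, 7.17 and 6.78 with polyI:C, a difference of -3.67. The genotype ratios at this probe, 0.34 untreated and 0.18 with polyI:C, passed no threshold. Within slides 1 and 2 the response was -3.21 and -4.15. Neither probe kept its call when any untreated array was left out, though both did when any polyI:C array was.

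All 8 tested probes of that interval (of 10) had lower Cy5 with polyI:C, from -3.84 to -0.50, but only those 2 passed. Another R probe gave at least a 3.91-fold lower level (adjusted p = 0.0615), as no treated sample was well above background. The 3 tested F probes had the values -1.35, -0.54 and -0.50, and the 5 R probes ran from -3.84 to -1.13, so the strands overlapped.

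Next by p were 2 intervals that did not pass. At chr12:32781477-32808567, an R probe had Cy5 levels of 9.18, 9.64 and 8.95 and then 6.35, 7.41 and 6.47, at least 4.63-fold lower with polyI:C (adjusted p = 0.0558). All 3 probes there had values between -2.51 and -2.15, and the pool differed by -2.54 at this probe. At chr17:39980973-39981876, an R probe went the other way, with 11.07, 11.65 and 11.87 and then 13.47, 13.73 and 14.33, a difference of 2.31 (adjusted p = 0.0615).

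**Figure D4:**
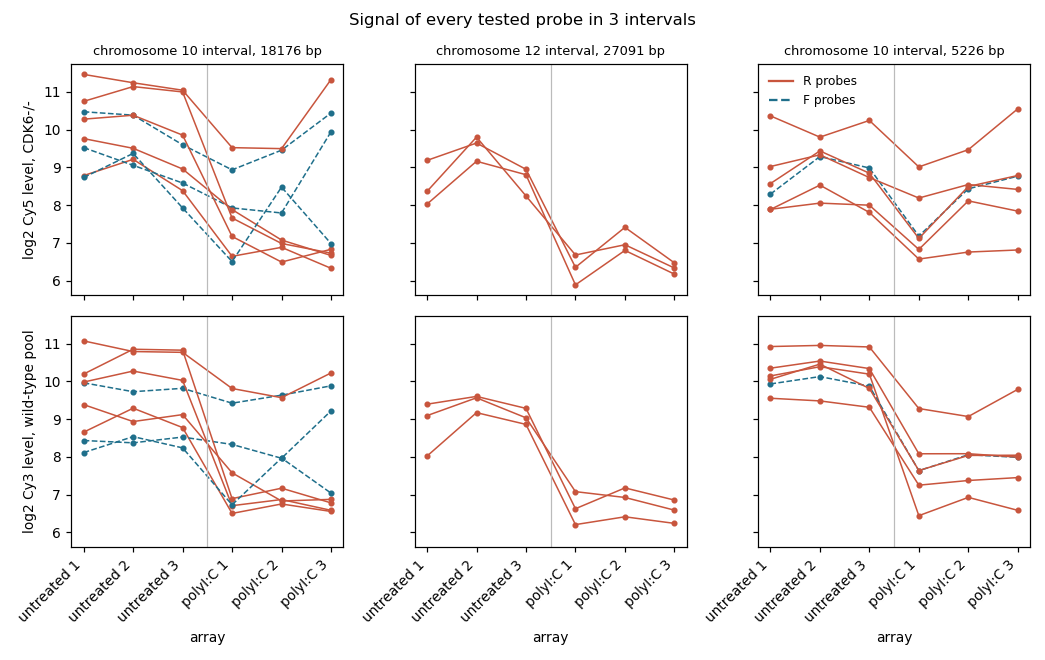
Log2 signal (y axis) of every tested probe on each array (x axis) in the chromosome 10 interval of 18176 bp, the chromosome 12 interval of 27091 bp and the chromosome 10 interval of 5226 bp, with CDK6-/- (Cy5) above and the wild-type pools (Cy3) below, solid lines for R and dashed for F probes. In the first 2 intervals R probes drop with polyI:C in both channels, while in the third the untreated Cy3 level stands above the other 3 sets of samples.

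In the wild-type pools, which allow values but no test, 709 interval probes (8.77%) differed by at least 2-fold between the treated and untreated pool, 254 higher and 455 lower with polyI:C. All tested probes stood at 12.5%, 4.40% higher and 8.13% lower, NM_ probes at 15.0% and NR_ probes at 11.4%. F and R probes were alike at 8.85 and 8.70%. From the scanner's processed signals, 1658 interval probes passed 2-fold.

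Of 763 intervals with tested probes on both strands, 12 had both strand means at least 2-fold apart in the same direction between the pools, 5 higher and 7 lower with polyI:C. On 37 a single strand was, and on none were both in opposite directions. The largest increase in pool level was at chr11:119250824-119286324, where all 6 probes were 2.03 to 2.40 higher in log2 Cy3 with polyI:C. The CDK6-/- samples differed by 1.01 to 1.56 at the same probes (lowest adjusted p = 0.144). At chr6:57583950-57624216, 6 of 6 probes were 1.52 to 2.03 higher in the pool and 0.50 to 1.14 in CDK6-/- (lowest adjusted p = 0.269). The knockout values were lower than the pool values in both intervals. For the difference of genotype ratios, 1 F and 1 R probe of the 6 at chr11:119250824-119286324 passed (-1.24 and -1.29).

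At chr17:35080914-35090009 all 16 probes were higher in the treated pool, by 0.78 to 2.23. The interval chr10:83980790-83986015 had the largest decrease in pool level on both strands, with 6 probes from -3.59 to -1.55, and CDK6-/- values from -1.36 to -0.39. At chr19:5771425-5848475, 11 of 12 probes were tested and ranged from -2.15 to -0.28. Malat1 and Neat1, nuclear lincRNAs that are neighbours on chromosome 19 and are measured here by their own NR_ probes, had pool differences of -1.39 and -1.45. Whether those genes overlap the interval was not tested.

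The brightest interval probes clustered in a stretch of chromosome 17. Of the 8 with the highest mean log2 signal, 5 lay in chr17:39960567-39992817 (32251 bp), which holds 5 intervals and 20 probes. This part of the mouse genome is known to carry a copy of the ribosomal RNA precursor gene, the transcript of RNA polymerase I. All 20 probes were tested and well above background in Cy5 on all 6 arrays. The brightest, an F probe of chr17:39982023-39983277 with a mean log2 signal of 16.69, had ratios of 0.14, 0.56 and 0.92 untreated and of 1.77, 1.24 and 1.02 with polyI:C. All 6 were above 0 and the treated ones were higher. Its polyI:C ratio of 1.35 passed (SE 0.21, adjusted p = 0.0286) and its untreated ratio of 0.54 did not (adjusted p = 0.127).

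Across the stretch, polyI:C ratios ran from 0.09 to 1.35 with a median of 0.59 and were above 0 at 20 of 20 probes, 1 of which passed. Untreated ratios ran from -0.90 to 0.54 with a median of -0.03, and 2 passed. The treatment difference in CDK6-/- ran from 0.04 to 2.31 with a median of 1.13, above 0 at 20 of 20 probes, and passed at none. In the pools it ran from -0.50 to 1.78, above 0 at 15 of 20. The other 3 of the brightest 8 were at chr7:118248833-118267766 (16.60), chr11:60728207-60745369 (16.24) and chr5:125861675-125880125 (16.11), and none of them passed in any tested comparison.

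On intervals with probes on both strands, both were usually detected. Of 1067 such intervals, 763 (71.5%) had a tested probe on each strand, 121 on F only, 102 on R only and 81 on neither. In Cy5 the share with both strands well above background was 68.6, 71.0 and 66.4% in the untreated samples and 53.4, 62.3 and 93.2% in the treated ones, so polyI:C array 3 stood apart here too. Whether the F and R probes of an interval overlap in sequence is not known, and the amplified product has both strands.

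The genotype ratios of both strands of an interval were weakly related, and the treatment responses had higher correlations. F and R means had the same sign at 60.7% of the intervals for the untreated ratio, 59.4% for the polyI:C ratio and 61.9% for their difference. The shares were 63.4% for the response of CDK6-/- and 70.1% for that of the pools. Neighbouring regions gave 51.2, 49.4, 50.8, 52.0 and 50.5% in that order. Over the 763 intervals, F and R means correlated at r = 0.23 for the untreated ratio, 0.29 for the polyI:C ratio, 0.36 for their difference, 0.50 for the response of CDK6-/- and 0.56 for that of the pools. Pairs of single probes on the same strand of an interval (the first 2 tested, n = 1987) gave 0.33, 0.32, 0.41, 0.47 and 0.50. A strand mean can hold several probes and the sets of intervals differ, so the values of the 2 kinds of pair cannot be ranked. Neighbouring regions of a chromosome (n = 1710) gave 0.01, 0.00, 0.04, 0.00 and 0.01. These correlations are across intervals measured on the same arrays, and are given as a description.

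**Figure D5:**
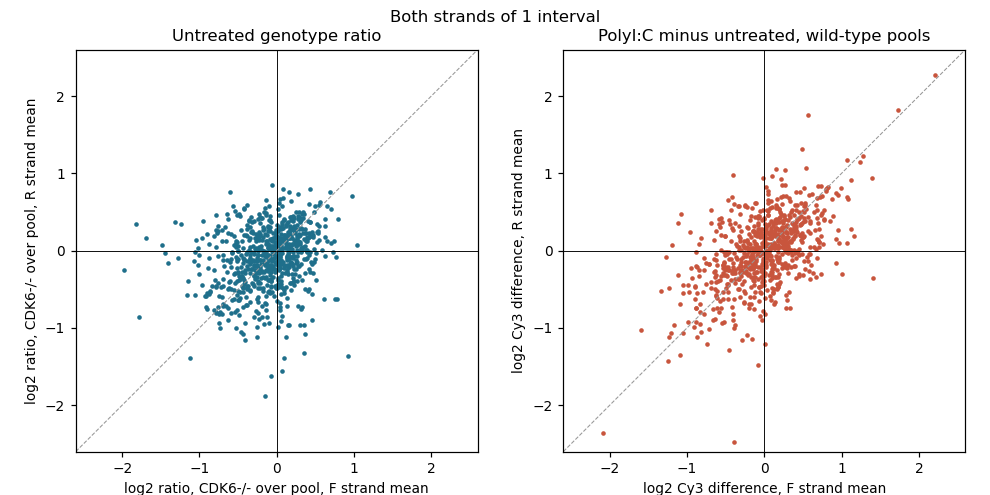
Mean of R probes (y axis) against mean of F probes (x axis) for the 763 intervals tested on both strands, with the untreated log2 ratio of CDK6-/- over the pool on the left and the log2 Cy3 difference between the pools on the right, and a dashed line where both are equal. The points follow the line more closely on the right (r = 0.56) than on the left (r = 0.23).

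In untreated cells, 83 of the 763 intervals tested on both strands had calls on both. At 10 of the 83, the means of the called F and R probes had opposite signs. Such a mean can hide calls of both signs on 1 strand. At chr1:39763924-39774099, an F and an R probe fell alike, by 1.78 and 1.88 on the log2 scale. At chr16:59557120-59602070, 3 F and 2 R probes fell, with ratios from -1.81 to -1.02, out of 12 tested. At chr17:84470764-84486339 the lowest of 3 was -1.85. Strands disagreed at chr12:110738120-110769295, with an F probe at -1.82 and an R probe at 0.93. At chr2:174088550-174109425 the 3 F calls ran from -1.95 to 1.09 and the R call was 1.09. There the F calls differed among themselves.

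In the intervals with the most probes, ratios varied among the probes of an interval. At chr17:26911397-26917047, all 20 probes were tested, 10 on each strand. Their untreated ratios ran from -0.36 to 1.04 with a median of 0.75 and 9 rose, while the polyI:C median was 0.16 and none passed. At chr16:43623581-43642715, again with 20 of 20 tested, no probe passed for the genotype in either treatment (untreated median 0.24), and the median difference between treatments was -0.97 in the pools and -1.15 in CDK6-/-. At chr19:53517903-53540753, 19 of 20 were tested, 4 passed untreated and the pool median was -1.41. At chr8:119732348-119749198, chr8:122920901-123008463, chr4:126710640-126721240, chr1:134867906-134885481 and chr14:65431652-65437902, between 0 and 3 probes passed in untreated cells, and none of these passed with polyI:C.

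Untreated calls were spread over the genome. They made up 8.68% of tested interval probes on chromosome 11 and 19% on chromosome 15, with the other 18 chromosomes between, and 11.8, 13.1, 12.5 and 13.7% from the shortest to the longest quartile of interval length. The X chromosome stood at 14.2%.

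Named lincRNAs and other long noncoding RNAs, measured by NR_ probes, offered a comparison with known genes. Of 50 listed, 29 were on the array and 24 were tested. In untreated cells Lncpint, a p53-induced transcript, had ratios of 0.78, 1.09 and 0.95 and rose by 0.94 (adjusted p = 0.0187), and Dleu2, the host of a microRNA cluster, had 0.78, 0.92 and 0.41 and rose by 0.70 (adjusted p = 0.0300). Ftx, of the X inactivation centre, gave -0.87, -0.83 and -0.54 and was lower, at -0.75 (adjusted p = 0.0422). Each of the 3 groups of ratios kept to one side of 0, and Lncpint kept its call in 3 of the 6 fits that left out 1 array, Dleu2 in 2 and Ftx in 1. These 3 of 24 stand beside 12.5% of all tested probes, and so near the background of the array. None of the 24 passed with polyI:C, for the difference or for the response, where 0.660, 1.77 and 0.157% of all tested probes did. Meg3 had a pool difference of -2.38 and a CDK6-/- response of -2.19 (adjusted p = 0.167), and H19 had no probe among those named by accession. The median untreated ratio of the 24 was 0.10, against -0.05 for all tested probes.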

How the data were processed

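Gene expression was measured on 6 two-colour Agilent arrays, each with 1 CDK6-/- sample in Cy5 and a wild-type pool in Cy3. Per the labels' protocols, total RNA (RNA integrity numbers from 5,3 to 8,9) went through TransPlex WTA2 amplification and received Cy3 or Cy5 by platinum coupling to guanine. Per the file headers, the arrays were read with Agilent Feature Extraction 11.5.1.1 and annotated on mm9 (the header of polyI:C array 3 names no build). The deposited scanner output gives, per spot, median intensity, background intensity and a processed intensity. The deposited log10 ratio of Cy5 to Cy3 was used to check direction only. The deposited flags (a yes or no mark, other than an intensity or ratio) mark controls, outliers, saturation (0 spots) and signal well above background. The values in the deposited table are log2 and differed from the log2 ratio of processed signals by at most 2.52e-06. No source used here names the authors' own test.

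In R 4.3.3 with limma 3.58.1, median signals were corrected by normexp (offset 50, since the files hold no mean signals), normalized by loess within arrays and, for channel levels, by Aquantile between arrays. Flagged spots (0.657%) were left out and spots of a probe averaged; 48 tested interval probes lack at least 1 array. lmFit and eBayes ran on all 6 arrays (4 residual degrees of freedom) over 31798 tested probes, leaving out 23883 dim ones, with Benjamini-Hochberg adjustment at 0.05. The fit was tested on simulated data. Array numbers follow the order of deposition. Accessions were named through RefSeq on GRCm38.p6 (28026 of 29796 probes matched), and 13 probes with a chromosome name of another form were not counted as interval probes. Named intervals are, for each comparison, the 8 highest and 8 lowest probes that passed with one sign on all arrays of the group (between treatments, with groups that do not overlap), or the 5 of lowest p where fewer than 3 passed; further, the 8 brightest, the 8 with calls on both strands and the 8 with the most probes. The intervals of the largest pool differences on both strands and the chromosome 17 stretch were chosen after their values were seen. Members and lists were chosen with earlier results of these data known. Alternatives were other signals, centring, offsets and filters, 1 probe per name, slide as a block (statmod 1.5.0) and each array left out. The number of arrays limits the precision. The p-values of the ratios and their difference measure the spread between CDK6-/- samples and between hybridisations of 1 pool per treatment. They hold no spread between wild-type samples, so at a called probe genotype and the particular pool cannot be told apart. The other p-values measure the spread between CDK6-/- samples.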

Additional observations from a re-analysis of the deposited data

Results flagged for a closer look

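The genotype ratio differed between treatments at 95 interval probes by limma's test of the difference itself. The 16 named ones were chosen among those whose untreated and polyI:C arrays did not overlap. The differences (polyI:C minus untreated, log2) of those with a higher polyI:C ratio were 3.15 at chr16:3111550-3130500, 2.94 at chr16:3337275-3355950, 2.87 at chrX:11688787-11689145, 2.66 at chr3:131128972-131163308, 2.32 at chr4:11049325-11072075, 2.27 at chr2:153163620-153170845, 2.23 at chr10:83980790-83986015 and 2.18 at chr3:146629425-146649125. Those with a lower polyI:C ratio were -2.30, -2.06, -2.06, -1.93 and -1.65 at the 5 probes of chr4:11102287-11118421, -1.73 at chr10:5950116-5958250, -1.62 at chr4:147105275-147171025 and -1.56 at chr1:137482591-137625604. At 1 probe each of chrX:11688787-11689145, chr4:11049325-11072075 and chr10:5950116-5958250 and at 3 of the chr4:11102287-11118421 probes (-2.06, -2.06 and -1.65), at least 1 channel was well above background on 0 of 3 arrays of a treatment, so the sizes there rest on signal near background. Without the 2 arrays low in Xist none of the 16 passed (adjusted p from 0.147 to 0.163, limma), and all 16 kept their sign.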

How the results depend on the processing

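No paired analysis was possible because replicate numbers follow the order of deposition and the labels pair no samples. Counts of interval probes past the threshold are given in the order untreated ratio (1050), polyI:C ratio (67), difference (95) and CDK6-/- response (2). Median centring gave 1703, 363, 55 and 9. Processed signals gave 735, 4, 55 and 4. An offset of 16 gave 1000, 29, 75 and 2, and loess on RefSeq probes alone 958, 41, 67 and 2. With no filter they were 1144, 22, 49 and 2, with the stricter filter 578, 89, 34 and 0 (395 at an unadjusted limma p under 0.05), and with 1 probe per name 437, 58, 22 and 0 (216). Slide as a random block gave 932, 65, 147 and 17. As a fixed block it gave 0 for the difference (1558) and 0 for the response (1163). Scaling to the 75th percentile left 1 response call, a higher one. Leaving out 1 array gave 537 to 1141, 0 to 75, 2 to 75 and 0 to 2. Leaving out both arrays low in Xist, an alternative chosen after seeing the data, gave 547, 0, 0 and 0 (1153, 1583 and 1285 at an unadjusted limma p under 0.05). The main fits had 1009, 1268 and 687 at that unadjusted p. The pool count of 709 was 1658 with processed signals, 321 with the stricter filter, 185 with 1 probe per name and 683 to 817 without 1 hybridisation. The detection difference of 4.72 points ranged from -7.45 (without polyI:C array 3, the reverse direction) to 12.4. Intervals detected on both strands were 71.5% and 90.5% by the positive-and-significant mark, or 71.5 to 75.4% without 1 array. The interval minus NM_ median ratio was 0.01 untreated, -0.068 with median centring and 0.00 to 0.03 without 1 array; with polyI:C it was -0.01, and -0.11 to 0.05 without 1 array. The causes were not tested. The probes named by their test (16 in each ratio comparison, 5 for the response) kept their sign in every alternative run. Their sizes depended on the processing. The difference of 3.15 at chr16:3111550-3130500 reached 5.15, that of 2.87 at chrX:11688787-11689145 reached 5.57, and that of -1.65 at chr4:11102287-11118421 reached -4.51. The polyI:C ratio of 1.35 at chr17:39982023-39983277, a bright probe, reached 2.89. At chrX:75813213-75829323 that of -1.91 stayed between -1.98 and -1.61. The SE values given hold no spread between settings. The brightest, both-strand and most-probed intervals were not followed in the alternative runs. Of 16 named for the untreated ratio, 15 passed whichever array was left out, against none of 16 for polyI:C and 2 of 16 for the difference. Signal near background limits the 8101 dim interval probes, which have no test.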
